A study of Mus musculus with 2 samples.

Results

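The genes that carry out regulated exocytosis, the release of stored vesicles and granules on a signal, were followed in mouse ovaries shortly before ovulation, with and without the progesterone receptor (gene Pgr). They were taken by symbol: the SNAP25-class proteins, syntaxins, VAMPs, syntaxin-binding proteins, complexins, synaptotagmins, the RAB3 and RAB27 GTPases, the chromogranins and secretogranins, and the clathrin adaptor Snap91. This gave 62 of the 18193 genes on the array, read by 145 probe sets, and the probe set of highest mean log2 signal stands for its gene. The 2 samples were whole ovaries of C57BL/6 wild-type mice and of PR knockout mice of that background, all 24 to 28 days old. Both groups were primed with PMSG (pregnant mare serum gonadotropin, 5 IU), which makes follicles grow, and 48 h later given hCG (human chorionic gonadotropin, 5 IU), which stands in for the surge of luteinizing hormone, and ovaries were taken 11 h after hCG. Each genotype has 1 Affymetrix Mouse Genome 430 2.0 array. How many mice or ovaries each RNA sample pools, and which part of Pgr the null allele disrupts, are not given in the sources used here.

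Vesicle fusion rests on SNARE proteins. A vesicle SNARE of the VAMP family zips together with a syntaxin and a SNAP25-class protein of the target membrane, while syntaxin-binding proteins and complexins steer the assembly and synaptotagmins couple it to calcium. RAB3 and RAB27 GTPases bring secretory vesicles to the membrane, and chromogranins and secretogranins are packed with peptide hormones inside dense-core granules. In the ovulating follicle, granulosa and cumulus cells release cytokines and peptides, and oocytes release cortical granules after fertilization.

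Values are MAS5 signals, a linear measure of probe set brightness in arbitrary units. A floor was set at each array's median over probe sets other than controls, 36.25 for wild type and 37.95 for knockout, and signals under it were raised to it. A gene counted as measured where it reached the floor on at least 1 array. Differences are log2 differences, knockout minus wild type. With 1 array per genotype there is no replicate error, no test and no p-value, and genotype cannot be told apart from the animals, the RNA preparation or the hybridization. Whole ovaries were used, so fewer cells of a type and less RNA per cell cannot be told apart either. Within-gene disagreement between probe sets gives the one spread at hand, a pooled SD of 0.27 on the log2 scale over the 24 members with several probe sets measured on both arrays and of 0.25 over 4771 genes, and it leaves out the spread between animals. Pgr itself gave signals of 36.54 and 42.75 by its brightest probe set (wild type, then knockout), both next to the floor, so the arrays do not check the genotype. Markers fitting the labelled tissue were present in both: Inha of granulosa cells gave 8399 and 8073, Cyp11a1 of steroid-producing cells 11660 and 10740, and the egg-coat gene Zp3 322.5 and 344.8. These values show presence only. Inha was the 1 exception among 9 granulosa markers, as the other 8 were higher in the knockout.

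Most of the exocytosis genes that could be measured had nearly the same signal in both ovaries, and 3 stood at least 2-fold apart: Snap25, lower in the knockout, and Rab27a and Snap91, higher. Of the 62 members, 42 were measured, 37 of them on both arrays, 3 on the wild-type array alone and 2 on the knockout array alone, and 20 lay under the floor on both. The 1 member at least 2-fold lower in the knockout is 2.38% of the 42 measured, against 1.72% of the 11316 measured genes. The 2 members at least 2-fold higher are 4.76%, against 1.15% of measured genes. These shares rest on 1 and 2 genes, and Snap25 counts as measured through the wild-type array alone, so it could differ in that direction only. Among the 37 members on both arrays, 0 were at least 2-fold lower, against 1.57% of the 10633 genes on both arrays, and 2 (5.41%) were at least 2-fold higher, against 0.978%. At 1.5-fold, 2 members were lower (4.76%, against 4.75% of measured genes) and 5 were higher (11.9%, against 6.54%). Of these 5, Vamp1 counts as measured through the knockout array alone, so it could only be higher. The probe sets of Cplx2, another of the 5, disagreed in sign.

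Among the 37 members on both arrays the median log2 difference was 0.06, with quartiles of -0.08 and 0.26, next to a median of 0.05 and quartiles of -0.14 and 0.26 over 10633 genes. Of the 37, 23 (62.2%) differed by less than 0.25 on the log2 scale, against 58.6% of all such genes. The sign of small differences depended on scaling: 23 members were higher and 14 lower as deposited, but 18 were higher and 19 lower after each array was centred on its median.

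**Figure D1:**
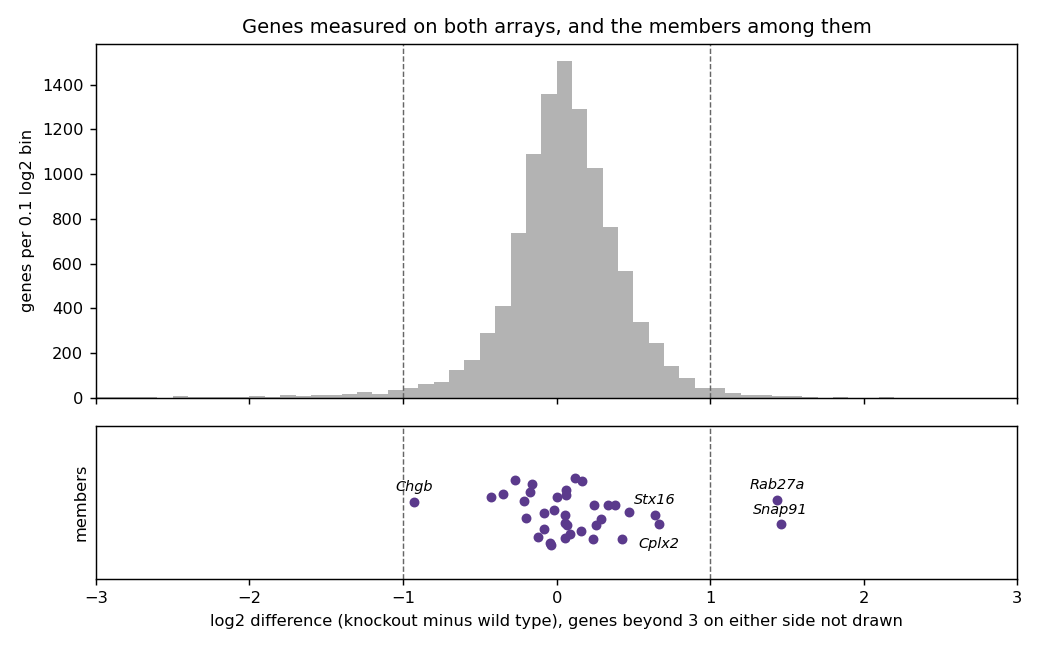
Histogram of log2 differences (knockout minus wild type, x axis) of the 10633 genes measured on both arrays (number of genes per bin, y axis), above the 37 members measured on both arrays, 1 point per gene with arbitrary height. The members lie around 0 as the other genes do, and Rab27a and Snap91 are the 2 beyond the dashed line for 2-fold on the right, with Chgb the farthest on the left.

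Of the 4 SNAP25-class SNARE genes, Snap25 was at least 2-fold lower in the knockout and the other 3 were within 0.25 on the log2 scale. Snap25, which encodes the plasma-membrane SNARE of neurons and endocrine cells, read 152.9 in wild-type ovaries and 6.82 in knockout ovaries. The knockout signal lies under the floor, so the ratio is at least 4.03-fold lower. The second Snap25 probe set was under the floor in both ovaries, at 20.65 and 3.03,. Snap25 is known from earlier work on receptor-deficient ovaries, so its direction here is not independent evidence. With the floor raised to each array's 70th percentile (120.9 and 127.6) the wild-type signal stands only just above it and the log2 difference is -0.26.

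Snap23, the form of SNAP25 used by most non-neuronal cells, gave 173.1 in wild-type and 204.1 in knockout ovaries, a log2 difference of 0.24. Its 3 probe sets, all measured, ran from -0.36 to 0.24, wider than that difference. Snap29, which acts in endosomal and autophagic fusion, gave 66.50 and 62.94, and Snap47, a widely expressed relative, 1081 and 1130. The low knockout signal of Snap25 was thus not shared by the other 3 genes of its class, whose log2 differences lay between -0.08 and 0.24.

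**Figure D2:**
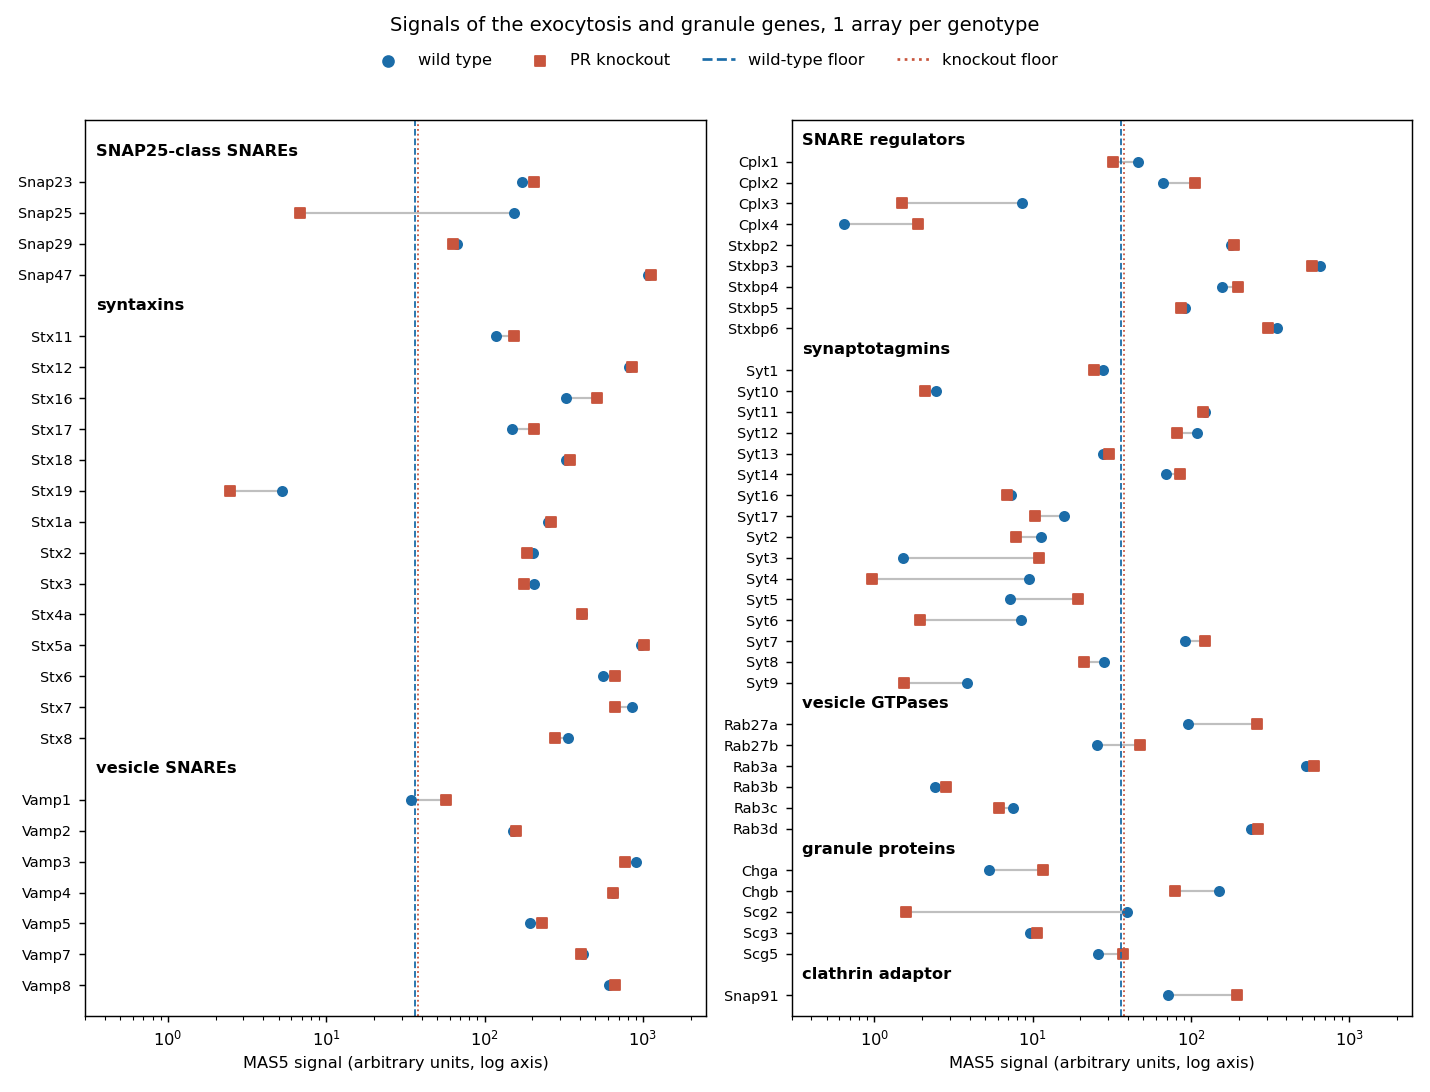
MAS5 signal (x axis, log scale, arbitrary units) of all 62 members by role, circles for the wild-type and squares for the knockout array, 1 array each, with the floors as vertical lines. Snap25 crosses from 152.9 to 6.82, Rab27a and Snap91 are displaced to the right in the knockout, and 12 of 16 synaptotagmins stay left of both floors.

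Syntaxins, the other target-membrane SNAREs, were measured on both arrays for 13 of 14 genes, and none differed by 2-fold. Their log2 differences ran from -0.35 to 0.64 with a median of 0.06. At the plasma membrane, where secretory vesicles fuse, Stx1a, the partner of SNAP25 in neuroendocrine cells, gave 250.3 in wild-type and 261.6 in knockout ovaries. Stx2 gave 200.8 and 185.0, Stx3, the syntaxin of apical membranes, 204.4 and 177.7, and Stx4a, used in most cell types, 412.7 and 408.9. All 4 of these plasma-membrane syntaxins were within 0.25 on the log2 scale.

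The largest syntaxin difference was in Stx16, a SNARE of the trans-Golgi network, at 327.8 and 510.2 (1.56-fold higher in the knockout, 1 probe set). Its Golgi partner Stx6 gave 559.9 and 663.9, with 5 probe sets measured on both arrays between 0.06 and 0.46. Stx17, which fuses autophagosomes with lysosomes, gave 148.1 and 205.4, and its 4 probe sets lay between 0.37 and 0.72, all on the side of higher signal in the knockout. Stx11, known from the granules of cytotoxic lymphocytes, gave 117.1 and 152.3, with both probe sets near the same value (0.37 and 0.38). On the other side were the endosomal syntaxins Stx7, at 851.5 and 667.4 (1.28-fold lower), and Stx8, at 336.2 and 278.4 (1.21-fold lower). Stx12, also endosomal, gave 816.1 and 849.3, so the endosomal genes did not share a direction. Stx5a and Stx18, which work between endoplasmic reticulum and Golgi, were even, at 976.9 and 1014 and at 326.2 and 347.2, though with _s_at and _x_at probe sets, which may match more than 1 transcript, left out Stx5a had a log2 difference of -0.28. Stx19 was under the floor in both.

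By their brightest probe sets, vesicle SNAREs were as even as the syntaxins. Of the 7 VAMP genes, 6 were measured on both arrays, with log2 differences from -0.22 to 0.26. With the mean over each gene's measured probe sets, 5 of these 6 were higher in the knockout, with a median of 0.19. For syntaxins that mean gave 7 of 13 higher, with a median of 0.07. Vamp2, the main synaptobrevin of synaptic and dense-core vesicles, gave 150.3 and 157.7, while its second probe set gave 0.56 on the log2 scale at lower signal (55.7 and 82.1). Vamp3, the vesicle SNARE of recycling endosomes in non-neuronal cells, gave 896.4 and 772.3, and its 5 probe sets ran from -0.43 to 0.25. Vamp8, found on the granules of many secretory cells, gave 611.1 and 662.8, Vamp7, of late endosomes and lysosomes, 415.2 and 404.1, and Vamp4, of the trans-Golgi network, 643.1 and 644.9. Vamp5, best known in muscle, gave 193.3 and 230.7. Vamp1, the other synaptobrevin, lay under the floor in the wild type at 34.35 and above it in the knockout at 56.86, at least 1.57-fold higher. As it counts as measured through the knockout array alone, it had to differ in that direction.

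**Figure D3:**
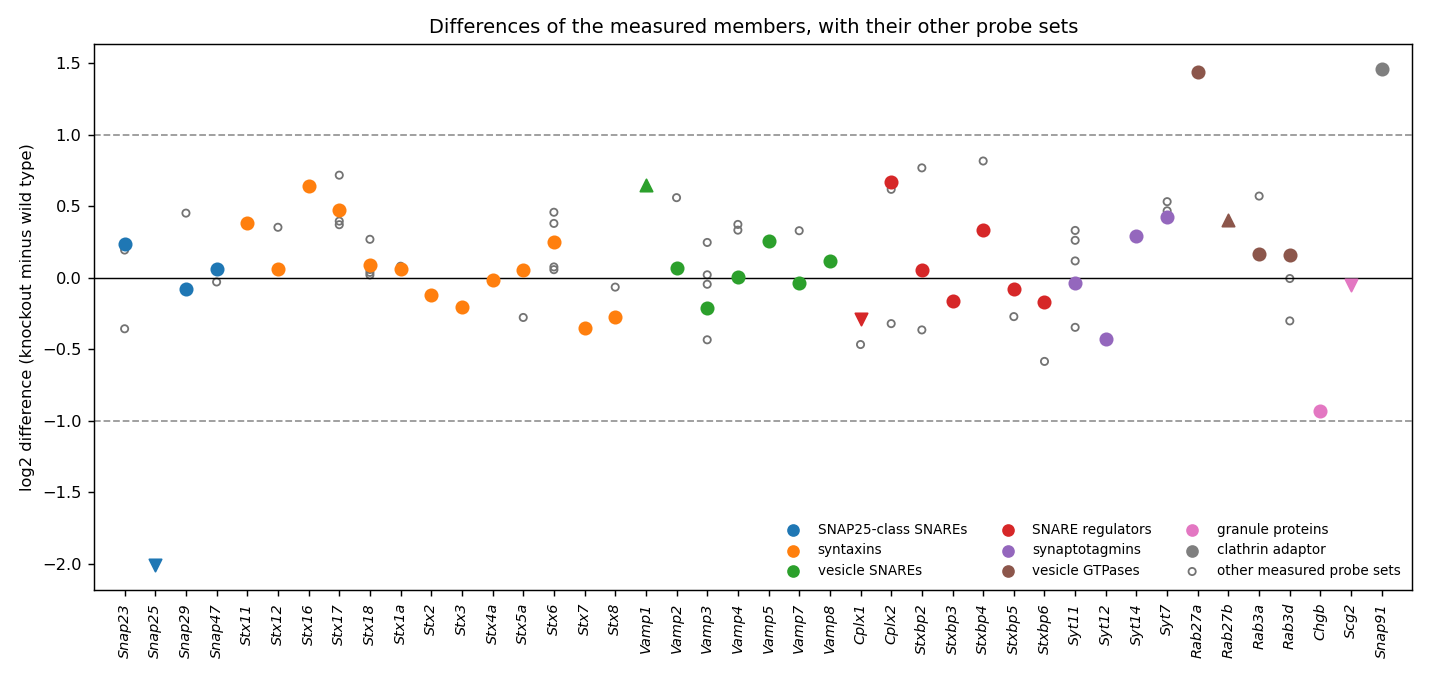
Log2 difference (knockout minus wild type, y axis) of the 42 measured members; filled circles were measured on both arrays, downward triangles on the wild-type array alone and upward triangles on the knockout array alone, and open circles are the gene's other measured probe sets. Snap25, Rab27a and Snap91 pass the dashed 2-fold lines, and each of them rests on 1 measured probe set.

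The regulators of SNARE assembly showed no 2-fold difference and several genes whose probe sets disagree. Stxbp2, the partner of Stx11 and Stx3 in granule release, gave 179.8 and 186.4 by its brightest probe set, while its 3 probe sets ran from -0.37 to 0.77. Stxbp3, the partner of Stx4a, gave 652.3 and 583.8. Stxbp4, which binds Stx4a in insulin-stimulated transport, gave 156.0 and 196.6, with a second probe set at 0.81 on the log2 scale. The inhibitors of SNARE assembly Stxbp5 and Stxbp6 gave 92.04 and 87.01, and 346.4 and 307.2. Cplx2, one of the complexins that hold partly zipped SNAREs until calcium arrives, gave 66.25 and 105.2, or 1.59-fold higher in the knockout. This value rests on such an _s_at probe set: with these left out the log2 difference of Cplx2 is -0.32, from a probe set at 71.5 and 57.2. The remaining probe set, under the floor in the wild type (30.3) and above it in the knockout (55.6), gave 0.62. Cplx1 was above the floor only in the wild type (46.28 against 31.92, at least 1.22-fold lower), and Cplx3 and Cplx4 were under it in both.

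The synaptotagmins, not all of which bind calcium, were the least measurable role, with 12 of 16 under the floor on both arrays. Among these were Syt1, Syt2 and Syt9, the fast sensors of synaptic and endocrine release, and their signals lay between 1.53 and 27.67. The 4 measured genes were Syt7, Syt11, Syt12 and Syt14. Syt7, a high-affinity sensor of slow release and of lysosome exocytosis, gave 91.65 and 123.0, and its 3 measured probe sets agreed at 0.42 to 0.53 on the log2 scale. Syt12 gave 109.1 and 81.28 (1.34-fold lower), Syt14 69.25 and 84.71, and Syt11 122.6 and 119.3 with 5 probe sets from -0.35 to 0.33. Syt7 and Syt12 thus lay at equal distance from 0 on opposite sides, each by less than 1.5-fold.

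Among the vesicle GTPases, Rab27a, which tethers secretory granules and lysosome-related organelles at the plasma membrane, gave 95.89 in wild-type and 259.3 in knockout ovaries, 2.70-fold higher. The other 3 Rab27a probe sets were under the floor in both ovaries, with signals between 10.7 and 28.7. Rab27a was at least 2-fold higher under each of the 8 other settings tried at that threshold, with a log2 difference of 1.10 when the floor was the 70th percentile. Its close relative Rab27b was under the floor in the wild type (25.66) and just above it in the knockout (47.86), by an _x_at probe set. As Rab27b counts as measured through the knockout array alone, it could only be higher. The other 3 Rab27b probe sets were under the floor in both ovaries. They read 28.61 and 28.08, 29.90 and 26.17, and 16.70 and 6.16, none higher in the knockout. The RAB3 genes that were measured showed no gap like that of Rab27a. Rab3a, the RAB of synaptic and dense-core vesicles, gave 528.7 and 593.6, and Rab3d, known from exocrine granules, 237.4 and 265.5. The second Rab3a probe set, without such a suffix, gave 0.57 on the log2 scale (120.0 and 178.2). Rab3b and Rab3c were under the floor.

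Granule proteins were mostly not measurable. Chgb, which helps form dense-core granules and stores peptide hormones, gave 150.1 in wild-type and 78.80 in knockout ovaries, 1.91-fold lower by its 1 probe set. It passed 2-fold after quantile normalization and after removal of the loess trend, where its log2 difference was -1.04. Adding a constant offset to the signals gave a smaller difference of -0.81. With the 70th-percentile floor, which lies above the knockout signal of Chgb, the difference was only -0.235, so its size depends on the floor. Scg2, the precursor of secretoneurin, stood only just above the floor in the wild type, at 39.40, and read 1.59 in knockout ovaries, so the floor leaves a difference of at least 1.04-fold. Chga, Scg3 and Scg5 were under the floor in both ovaries, with Scg5 at 25.78 and 37.26 the nearest to it.

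Snap91, which assembles clathrin coats when synaptic vesicle membrane is retrieved after exocytosis, gave 71.10 in wild-type and 195.4 in knockout ovaries, 2.75-fold higher. Despite its symbol it is no SNARE. Its other probe set read 0.8 and 2.0, far under the floor, and with the 70th-percentile floor the log2 difference was 0.69, under 2-fold. Snap25, Rab27a and Snap91 therefore each depend on a single probe set.

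The RefSeq promoter table (GRCm38.p6, 250 bases before to 50 after each transcript start) held 63 windows of 50 members. The other 12 members, Snap25 among them, had no window there. The windows of Snap91, Rab27a and Chgb are shown because these are the 3 members measured on both arrays that differ most between the ovaries. Capitals mark letters searched on both strands: GGGCGG (GC box), TGTTCT (the arm of the palindrome bound by progesterone and glucocorticoid receptors), TGACG (core of cyclic AMP response elements) and TGANTCA (AP-1 site).

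Snap91, chr9:86880659-86880958, minus strand: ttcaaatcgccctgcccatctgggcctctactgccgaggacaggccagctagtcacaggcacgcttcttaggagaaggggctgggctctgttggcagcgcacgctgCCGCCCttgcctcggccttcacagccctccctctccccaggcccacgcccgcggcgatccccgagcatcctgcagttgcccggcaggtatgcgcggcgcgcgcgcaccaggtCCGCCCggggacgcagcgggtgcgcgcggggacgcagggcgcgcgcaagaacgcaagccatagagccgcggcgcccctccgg

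Rab27a, first start, chr9:73044560-73044859, plus strand: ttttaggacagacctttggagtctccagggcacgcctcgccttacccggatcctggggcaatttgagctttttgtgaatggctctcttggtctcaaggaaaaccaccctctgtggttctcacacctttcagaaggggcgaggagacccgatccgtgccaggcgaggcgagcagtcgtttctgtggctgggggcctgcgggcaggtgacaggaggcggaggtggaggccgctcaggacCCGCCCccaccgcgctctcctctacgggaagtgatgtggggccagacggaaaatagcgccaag

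Rab27a, second start, chr9:73063898-73064197, plus strand: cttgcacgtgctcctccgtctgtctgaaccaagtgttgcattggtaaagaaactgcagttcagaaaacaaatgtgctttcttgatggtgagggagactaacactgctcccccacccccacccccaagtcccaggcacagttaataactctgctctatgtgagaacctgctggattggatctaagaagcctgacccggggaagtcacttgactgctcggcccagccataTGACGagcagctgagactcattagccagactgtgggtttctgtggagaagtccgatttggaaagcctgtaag

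Chgb, chr2:132781392-132781691, plus strand: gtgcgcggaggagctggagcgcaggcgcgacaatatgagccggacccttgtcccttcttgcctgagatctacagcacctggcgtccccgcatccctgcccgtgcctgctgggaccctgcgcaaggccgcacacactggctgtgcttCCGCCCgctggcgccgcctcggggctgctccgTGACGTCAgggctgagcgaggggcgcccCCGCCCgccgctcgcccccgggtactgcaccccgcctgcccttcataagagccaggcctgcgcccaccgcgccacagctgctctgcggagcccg

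The Snap91 window held 2 GC boxes and the first Rab27a window 1, while the second Rab27a window held 1 TGACG core. The Chgb window held 2 GC boxes and, starting at -72 from the start site, TGACGTCA, the full palindrome that gives a TGACG core on each strand. None of the 4 windows held TGTTCT or TGANTCA. Over all member windows, 65.1% held a GC box against 35.7% of the 32851 windows in the table, 33.3% held TGACG against 20.8%, 7.94% held TGTTCT against 19.0%, and 4.76% held TGANTCA against 7.81%. The table covers genes of all kinds, and these shares describe letters in short windows, not bound sites.

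The genes that surround the SNAREs were read from 3 lists, none of which holds a member: SNARE disassembly and tethering, priming and docking factors with effectors of RAB3 and RAB27, and granule content with prohormone processing. Of 98 listed genes, 95 had a probe set and 64 were measured. At least 2-fold lower was 1 of the 64, Edn2 (1.56%, against 1.72% of all measured genes), and 0 were at least 2-fold higher (against 1.15%). At 1.5-fold 7 were lower (10.9%, against 4.75%) and 3 higher (4.69%, against 6.54%).

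All 28 genes of SNARE disassembly and tethering were measured on both arrays, and none was 1.5-fold apart. Nsf, the ATPase that pulls used SNARE complexes apart, gave 381.2 and 414.5, and its adaptor Napa 884.8 and 754.9. Exoc7, of the exocyst complex that tethers vesicles, was the highest in the knockout relative to wild type (128.3 and 183.2, 1.43-fold), followed by Exoc4 (343.3 and 460.1, 1.34-fold). The lowest were the syntaxin-binding gene Scfd2 (87.47 and 62.08, 1.41-fold) and Sec22c (49.16 and 38.20, 1.29-fold).

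Among priming and docking genes, 23 of 42 were under the floor, including the synaptic scaffold genes Rims1, Bsn and Pclo and the synaptic vesicle genes Syp and Syn1. Of the 18 measured on both arrays, 9 were higher and 9 lower in the knockout. Unc13d, which primes granules and binds RAB27A, gave 51.21 and 90.68 (1.77-fold higher) and Rph3al, a RAB3 and RAB27 effector, 105.0 and 171.0 (1.63-fold higher). Doc2b, a calcium-binding priming factor, gave 54.72 and 83.72 (1.53-fold higher). Cadps2, which primes dense-core vesicles, gave 65.20 and 42.02 (1.55-fold lower), and Erc1, a scaffold gene, 175.6 and 140.9 (1.25-fold lower).

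Granule content and prohormone processing genes stood on the lower side in the knockout, 13 of 16 measured on both arrays, with a median log2 difference of -0.38. As deposited, 42.5% of all genes on both arrays were lower. The count stayed at 13 of 16 under each of the 3 rescalings. Over all genes, 5482 of 10633 (median), 4817 of 10634 (quantile) and 5227 of 10635 (loess) were then lower. Endothelin-2 (Edn2), a vasoconstrictor peptide, gave 2562 and 38.13, 67.2-fold lower, and endothelin-1 (Edn1) 84.33 and 44.27 (1.90-fold lower). The knockout signal of Edn2 stood only just above the floor of 37.95. The neurotrophin gene Bdnf gave 115.5 and 70.07, the neuropeptide gene Adcyap1 72.71 and 46.36, the opioid precursor gene Penk 301.6 and 222.8, and the oxytocin gene Oxt 84.13 and 58.78. The dense-core granule membrane protein gene Ptprn gave 99.59 and 60.79, and Ctsl, a protease that also acts on prohormones, 9409 and 6013. The exceptions were Cpe, which trims basic residues from prohormones, at 4414 and 4937, and Pam, which amidates peptides, at 315.2 and 415.9. The granule-associated gene Ica1 was also higher, at 87.71 and 99.65. Other processing genes were lower, each by less than 1.5-fold: Furin gave 365.1 and 320.5, Pcsk5 2146 and 1856, Pcsk6 226.7 and 181.3, and Pcsk7 183.7 and 176.6. Edn2, Adcyap1 and Ctsl were already known as receptor-dependent in ovulating ovaries, so the list's direction is not independent evidence, and with the 70th-percentile floor 6 of 8 genes were lower and the median was -0.20.

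**Figure D4:**
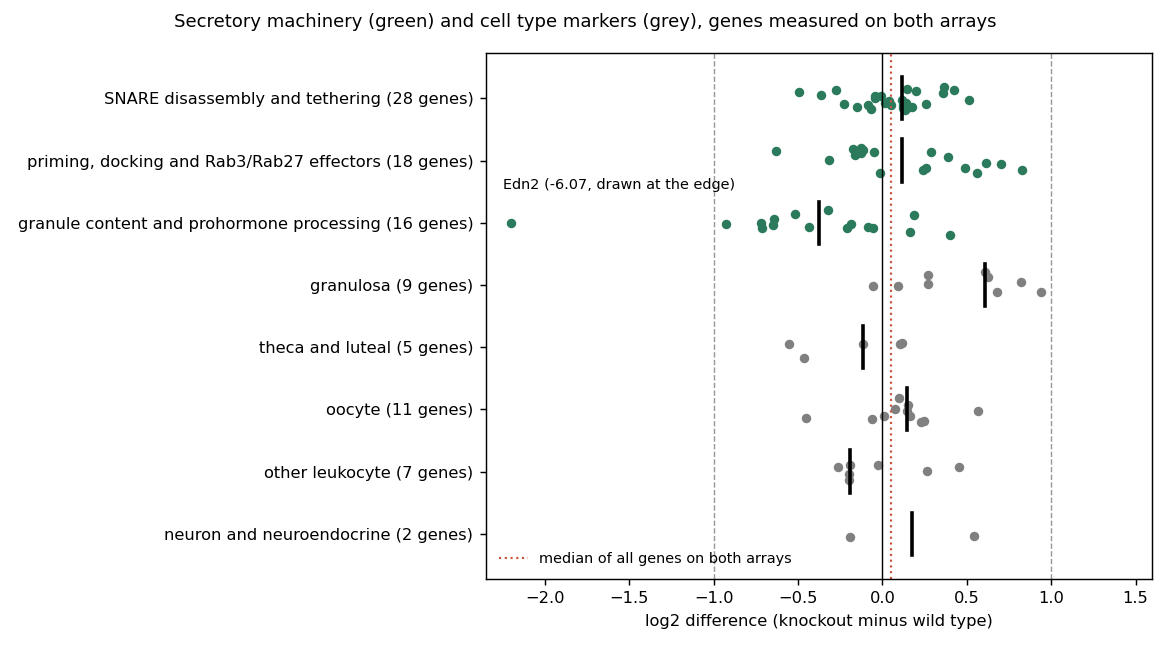
Log2 difference (knockout minus wild type, x axis) of genes measured on both arrays in 3 lists of secretory machinery (green) and 5 lists of cell type markers (grey), 1 point per gene; black bars are list medians and the dotted line is the median of all genes. Granule content lies to the left with a median of -0.38 and granulosa markers to the right with a median of 0.61.

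Markers of other cell types that use this machinery were read beside the members. Of 16 neuron and neuroendocrine markers with a probe set, 13 were under the floor on both arrays, among them Th, Dbh, Phox2a, Elavl3, Elavl4, Stmn2 and Prph. Summed signals are as deposited, without the floor, and include the genes under it. For this list the sum was 712.0 in wild-type and 816.2 in knockout ovaries. The largest share came from the vesicular amine transporter gene Slc18a2, at 334.6 and 486.5, and Tubb3, the other marker measured on both arrays, gave 101.0 and 88.55. All 8 mast cell markers were under the floor. Of 14 other leukocyte markers, 7 were measured, with summed signals over the list of 1149 and 1164, and log2 differences from -0.26 to 0.45. Of the 7, 5 were lower and 2 higher in the knockout, with a median of -0.19. The largest difference was the higher signal of Csf1r, at 277.4 and 379.8. The sums for oocyte markers were 3127 and 3465 (12 genes) and for theca and luteal markers 37280 and 35170 (5 genes). As deposited, 3 of these 5 genes were lower in the knockout and 2 higher. Star, at 6317 and 4307, and Cyp17a1, at 2010 and 1456, had the largest differences.

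Granulosa markers summed to 15450 in wild-type and 17770 in knockout ovaries over 9 genes, 8 of which were higher in the knockout, with Esr2 at 178.9 and 342.5 and Inhbb at 1113 and 1968. The part of these cell types in the higher signals of Rab27a and Snap91, or in the lower signals of Snap25 and Chgb, was not tested.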

How the data were processed

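RNA from 1 wild-type and 1 PR knockout ovary sample was hybridized to Affymetrix arrays. The deposited values are linear intensities, 1 per probe set, made by the authors with MAS5 in Affymetrix Expression Console version 1, per the submitters' processing notes. The mean of each array after trimming 2% at each end was 150, so each was scaled by 1 factor, and MAS5 subtracts mismatch signal, which makes low values noisy. Detection calls were not used here.

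Control probe sets (64) were set aside, leaving 45037, of which 34945 carried 1 gene symbol in the platform annotation. All 62 members matched RefSeq by gene ID, with the same symbols. Members, lists and settings were chosen with earlier results of these data known. Named genes are Snap25, Snap23, each member at least 1.5-fold apart, the extremes of each role and, as the rule allows, other members measured on both arrays; of the surrounding lists, genes at least 2-fold apart, the 2 largest differences in each direction, and some further genes chosen after their values were seen. The calculation (Python 3.11.15, pandas 2.3.3) was tested on simulated data. Changes were planted only in genes brighter than Snap25, Rab27a, Snap91 and Chgb, so this does not cover genes of such low signal. Alternatives were 3 rescalings (median, quantile, loess), no floor, a 70th-percentile floor, an offset of 16, the mean over probe sets, the removal of _x_at and _s_at probe sets, and a 1.5-fold threshold. The number of arrays limits the precision.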

Additional observations from a re-analysis of the deposited data

How the results depend on the processing

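The median log2 difference of the members, 0.06, ran from 0.00 with median centring to 0.12 with the mean over probe sets. In place of 1 member at least 2-fold lower, 2 were lower after quantile normalization or removal of the loess trend (Snap25 and Chgb), 2 with no floor or the offset (Snap25 and Scg2), 2 at the 1.5-fold threshold (Snap25 and Chgb) and 0 with the 70th-percentile floor. In place of 2 higher members, 1 was higher with the 70th-percentile floor (Rab27a) and 5 at the 1.5-fold threshold. The log2 difference of Snap25 was -4.49 with no floor, -2.89 with the offset and -0.26 with the 70th-percentile floor, so its size is set by how a knockout signal near background is treated. Of the surrounding genes, 2 were at least 2-fold lower after quantile normalization and after removal of the loess trend, 7 were lower at the 1.5-fold threshold and 3 higher at that threshold, in place of 1 and 0. Of 317 values of the other 41 measured members under the alternatives, 11 moved by 1 within-gene SD or more, in 9 members, and no member at least 2-fold apart changed sign. No paired analysis was possible because there is 1 array per genotype.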

Other observations

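The proteins that bind RAB27 on granules, and the motor that acts with them, were looked at together after the value of Rab27a was seen. This selection therefore supports nothing by itself. Of 11 such genes (Sytl1 to Sytl5, Rph3a, Rph3al, Myrip, Mlph, Myo5a and Unc13d), 9 had a probe set, 5 were measured on both arrays and 4 were under the floor on both. All 5 measured genes had higher signal in the knockout, with a median log2 difference of 0.56. They were picked from the priming and docking list, where 9 of 18 genes on both arrays were higher and 9 lower. All 9 lower genes of that list thus lie outside this selection. As deposited, 57.5% of the 10633 genes on both arrays were higher and their median was 0.05. The 5 genes stayed higher under each of the 3 rescalings. Over all genes, 5151 of 10633 (median), 5814 of 10634 (quantile) and 5408 of 10635 (loess) were then higher. Besides Unc13d and Rph3al, the granuphilin gene Sytl4, which docks granules at the plasma membrane, gave 357.6 in wild-type and 502.1 in knockout ovaries. Sytl2 gave 225.3 and 332.3. The motor gene Myo5a, which carries granules along actin, gave 140.6 and 167.8, but its 3 measured probe sets ran from -0.37 to 0.26 on the log2 scale, and with the mean over probe sets 4 of the 5 were higher.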
